A study of Mus musculus with 32 samples.

Results

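The genes described here encode chaperones of the heat shock response and their partners in mouse bone marrow-derived macrophages (BMDM) with or without the DNA exonuclease gene Trex1. The 10 genes were taken by name as rows of the raw count table, out of 54281 gene identifiers, and comprise Ahsa1, Hsp90aa1, Hsp90ab1, Hspa8, Hspa1a, Hspa1b, Hsph1, Dnaja1, Dnajb1 and Hspe1. They were chosen by the values of Ahsa1, which was higher after loss of Trex1 on day 2, so the values of that day are given below as a description without a test. The group is labelled as cytosolic, which does not hold for Hspe1, whose product is the co-chaperonin of the mitochondrial matrix. All 10 genes were among the 15257 genes that passed the filter on low counts.

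BMDM were grown from bone marrow for 6 days in medium with 30% L929 cell supernatant. Both genotypes carried the tamoxifen-inducible Cre recombinase CreERT2 in the Rosa26 locus, which is active in most cell types. Trex1 FL/FL R26-CreERT2 cells had loxP sites in both copies of Trex1, and Trex1 WT/FL R26-CreERT2 control cells kept 1 wild type copy. Cells of each genotype received 4-hydroxytamoxifen (4-OHT) at 2 µg/ml for 22 h or were left untreated, and RNA was taken 1, 2, 3 or 4 days after the end of the exposure. These 2 genotypes, 2 treatments and 4 days make 16 groups of 2 libraries each, 32 in all. Control cells given 4-OHT thus also lost 1 copy of Trex1, and Cre was present in both genotypes. Strain, age of the mice and whether the 2 libraries of a group came from separate animals or cultures are not given in the sources used here, so p-values measure only the spread between these libraries.

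HSP90 proteins hold client proteins such as kinases and receptors in a state from which they can mature, and turn over ATP while doing so. AHA1, the product of Ahsa1, binds HSP90 and speeds up its ATP hydrolysis. HSP70 proteins bind unfolded stretches of polypeptide, J-domain proteins deliver the substrates and stimulate the ATPase of HSP70, and the HSP110 protein made from Hsph1 exchanges the nucleotide. Many of these genes are transcribed under the control of heat shock factor 1, which binds arrays of short inverted repeats, the heat shock elements.

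The promoter sequences of 5 genes are shown because the genes that differed between the genotypes on days 3 or 4 included Ahsa1, Dnaja1 and Hspa1a, whereas the difference of Hsph1 did not pass the test on either day and Hspa1b is the near copy of Hspa1a. The sequences are from the RefSeq promoter table (GRCm38.p6), which held 7 of the 10 genes with 11 start sites. It held no sequence for Hspa8, which also differed on day 4, nor for Hsp90aa1 and Hsp90ab1. Each of the 11 sequences was found once in GRCm39, whose coordinates are given. Each runs from 250 bases before the start site to 50 bases after it, 5′ to 3′ on the strand of the gene, and capitals mark every match to 2 adjoining heat shock units in inverted order, GAANNTTC or TTCNNGAA.
Ahsa1, chr12:87313252-87313551, plus strand: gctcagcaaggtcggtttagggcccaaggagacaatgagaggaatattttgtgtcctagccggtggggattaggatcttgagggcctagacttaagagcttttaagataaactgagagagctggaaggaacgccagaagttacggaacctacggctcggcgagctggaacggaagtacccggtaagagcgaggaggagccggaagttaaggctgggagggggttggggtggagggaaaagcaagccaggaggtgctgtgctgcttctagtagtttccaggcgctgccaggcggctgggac
Dnaja1, chr4:40722218-40722517, plus strand: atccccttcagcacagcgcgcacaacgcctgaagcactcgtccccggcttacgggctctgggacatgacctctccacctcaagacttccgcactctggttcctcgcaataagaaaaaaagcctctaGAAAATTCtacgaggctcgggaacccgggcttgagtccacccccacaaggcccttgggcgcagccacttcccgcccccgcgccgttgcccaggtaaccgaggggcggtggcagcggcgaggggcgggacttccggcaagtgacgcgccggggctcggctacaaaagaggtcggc
Hspa1a, chr17:35191083-35191382, minus strand: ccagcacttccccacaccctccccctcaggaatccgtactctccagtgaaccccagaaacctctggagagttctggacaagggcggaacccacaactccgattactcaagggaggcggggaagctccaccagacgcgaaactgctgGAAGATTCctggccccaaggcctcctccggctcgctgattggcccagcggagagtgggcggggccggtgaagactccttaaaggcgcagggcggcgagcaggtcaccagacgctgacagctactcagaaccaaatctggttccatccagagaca
Hspa1b, chr17:35178165-35178464, minus strand: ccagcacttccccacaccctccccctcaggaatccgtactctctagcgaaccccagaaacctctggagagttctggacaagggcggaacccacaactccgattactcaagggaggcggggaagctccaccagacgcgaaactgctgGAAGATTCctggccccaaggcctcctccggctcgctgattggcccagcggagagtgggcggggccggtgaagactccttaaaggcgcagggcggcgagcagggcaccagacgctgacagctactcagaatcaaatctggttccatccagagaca
Hsph1, chr5:149559752-149560051, minus strand: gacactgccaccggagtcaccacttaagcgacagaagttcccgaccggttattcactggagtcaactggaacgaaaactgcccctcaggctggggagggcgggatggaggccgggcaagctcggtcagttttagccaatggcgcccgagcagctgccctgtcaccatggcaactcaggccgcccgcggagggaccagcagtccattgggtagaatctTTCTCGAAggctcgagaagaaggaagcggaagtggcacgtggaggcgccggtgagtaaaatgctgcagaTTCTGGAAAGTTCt

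In these windows, a match to 2 units was found in 5 of the 7 genes, namely Hspe1, Hsph1, Dnaja1, Hspa1a and Hspa1b, and in 15.1% of the 32851 windows, or 17.0% of the genes, of the table. The Ahsa1 window and both windows of Dnajb1 held no such match, and 2 of the 3 windows of Dnaja1 held none either. The Ahsa1 window starts at position 87313252 and the gene as annotated by GENCODE at 87313253. Bases upstream of the annotated Ahsa1 gene were therefore almost all outside the window and were not searched. The windows of Dnaja1 start at 40722218 or later, inside the gene annotated from 40722056. Those of Hsph1, on the minus strand, end at 149560051 or lower, inside the gene annotated to 149560156. Bases upstream of the annotated Dnaja1 and Hsph1 genes were thus not searched either. A run of 3 units, GAANNTTCNNGAA or TTCNNGAANNTTC, occurred in the windows of Hspe1 and Hsph1 and in 0.603% of all windows. In the printed Hsph1 window this run forms the last stretch of capitals. An interferon-response motif, searched on both strands as GAAANNGAAA or TTTCNNTTTC, matched none of the windows of these genes and 3.44% of all windows. The windows of Hspa1a and Hspa1b differed at 4 positions. The 3-unit matches overlap 2-unit matches by construction, and a match is a description of letters only.

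Trex1 was read first as a check of the labels. Untreated cells of both genotypes held 28.6 to 144 CPM (counts scaled to the library total, as edgeR's cpm gives them) of Trex1 in each library. Control cells given 4-OHT held 12.2 to 79.4 CPM, and on each day both libraries lay below those of untreated control cells. FL/FL cells given 4-OHT held 0 counts of Trex1 in both libraries on days 1, 3 and 4, which allows up to 3 counts per library, and 14 and 9 counts on day 2. The libraries held 35120505 to 63760884 counts (median 44841991), of which the 10 genes took 0.328 to 0.572% (median 0.399%). The pair of untreated FL/FL libraries of day 1 differed most within a group, with a chi-square of 47.4 per degree of freedom over genes against 9.02 to 20.4 for the other pairs. Several of the results that use them are therefore also given with single libraries left out. Of the lists of cell type markers, the 7 macrophage genes summed to 15020 to 47900 CPM in each library. Lyz2 was the highest of them, with a mean of 20730 CPM beside a median sum of 30670 CPM. Granulocyte genes summed to 4.69 to 19.0 CPM, dendritic cell genes to 0.669 to 2.65 CPM and genes of fibroblasts and stroma to 0.0871 to 2.37 CPM. Lymphocyte genes stayed at or below 0.173 CPM, with Ncr1 at 0 counts throughout. In such bulk samples, fewer cells of a type and less RNA per cell cannot be told apart.

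**Figure D1:**
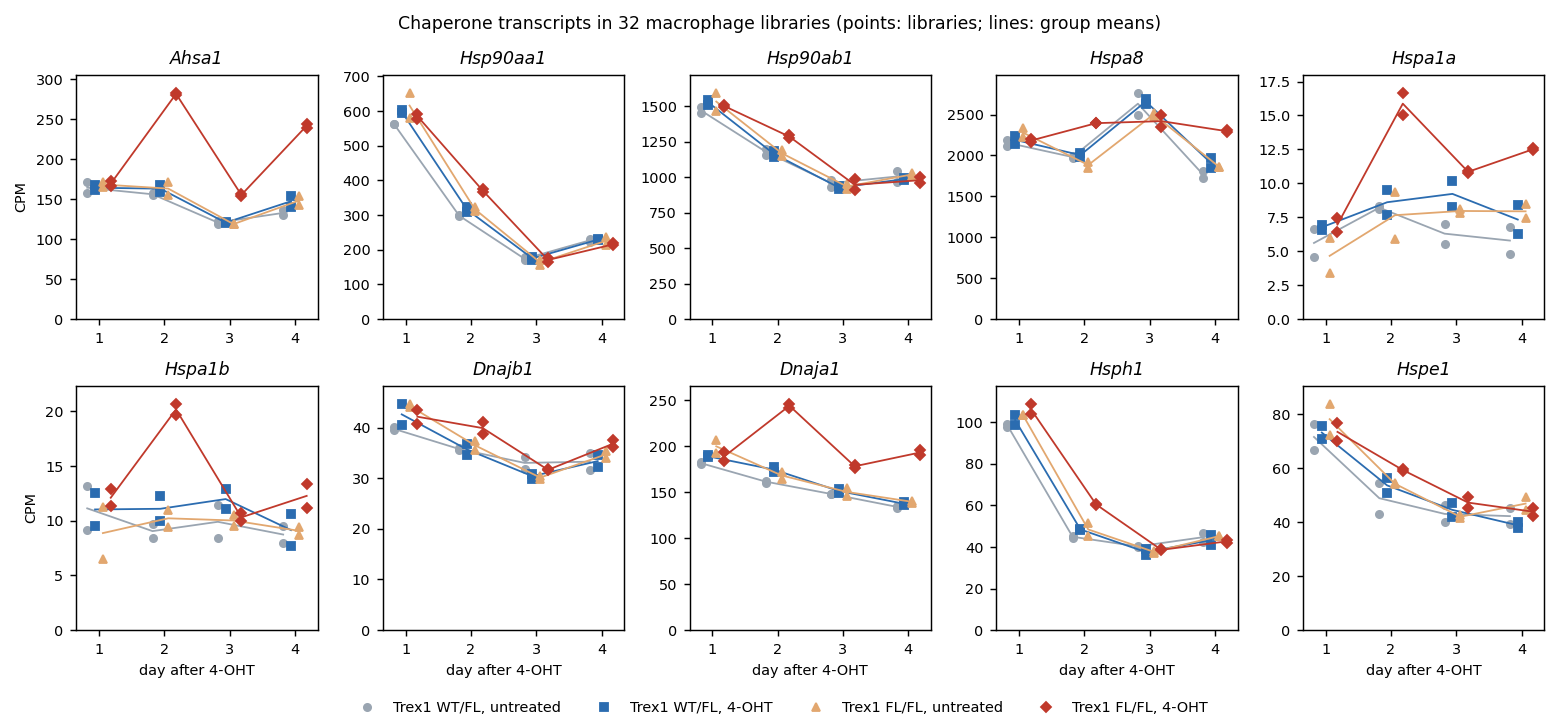
CPM of each of the 10 chaperone genes (y axis, linear, from 0) on days 1 to 4 after 4-OHT (x axis). Points are single libraries, 2 per group, and lines join group means. The 4-OHT-treated FL/FL libraries of Ahsa1 lie at 280 and 283 CPM (day 2) and at 239 and 245 CPM (day 4), above all other libraries.

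To ask what loss of Trex1 does to these transcripts, 4-OHT-treated FL/FL cells were compared with 4-OHT-treated control cells on each day. On day 1, 0 of the 10 genes passed an adjusted p of 0.05 (edgeR quasi-likelihood test, adjusted over all genes tested), against 0.0197% of all genes. None had an unadjusted p under 0.05 and DESeq2 called none. Differences ran from −0.03 to 0.13 on the log2 scale.

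Ahsa1, which encodes the activator of the HSP90 ATPase (chr12:87313253-87323761, plus strand), had the lowest adjusted p of the group between genotypes on days 3 and 4. After 4-OHT, control cells held 162 and 167 CPM on day 1, 167 and 159 on day 2, 122 and 120 on day 3, and 155 and 140 on day 4. FL/FL cells held 166 and 172 CPM on day 1, 283 and 280 on day 2, 157 and 154 on day 3, and 239 and 245 on day 4. The genotypes overlapped on day 1 and were apart on the other days, with all FL/FL libraries higher. On day 2 the log2 difference was 0.79 ± 0.06 (SE), or 1.73-fold, given without a test because it chose the group. On day 3 Ahsa1 was 1.29-fold higher in FL/FL cells (log2 0.36 ± 0.06, edgeR adjusted p = 3.7e-05). On day 4 it was 1.64-fold higher (0.71 ± 0.06, edgeR adjusted p = 1.7e-10). The difference was thus smaller on day 3 than on day 4, and on day 3 Ahsa1 was also lowest in control cells. Its change from day 2 to day 3 was not tested, because the day 2 value chose the group.

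Dnaja1, a J-domain partner of HSP70 (chr4:40722056-40737149, plus strand), had a similar course. Control cells given 4-OHT held 172 and 177 CPM on day 2, 149 and 153 on day 3, and 139 and 136 on day 4. FL/FL cells held 246 and 242 CPM on day 2, 176 and 180 on day 3, and 196 and 191 on day 4. All FL/FL libraries lay above the control libraries on these days, whereas on day 1 the ranges overlapped, with 184 and 194 CPM in FL/FL cells and 190 and 188 in control cells. The log2 difference was 0.48 ± 0.05 on day 2 (not tested). It was 0.24 ± 0.05 on day 3 (1.18-fold, edgeR adjusted p = 0.00063) and 0.49 ± 0.05 on day 4 (1.41-fold, edgeR adjusted p = 5.2e-09).

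Dnajb1, the J-domain protein best known from the heat shock response (chr8:84334811-84339820, plus strand), differed less. Its libraries ran from 29.9 to 44.7 CPM over the whole series. After 4-OHT, control cells held 34.5 and 32.2 CPM on day 4 and FL/FL cells 37.5 and 36.2 CPM. The FL/FL libraries were the higher ones, but the log2 difference of 0.14 ± 0.07 did not pass the test (edgeR adjusted p = 0.11), and on day 3 it was 0.06 ± 0.07.

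Hspa8, the constitutive HSP70 of the cytosol (chr9:40711630-40731039, plus strand), gave most reads of the group. Control cells given 4-OHT held 1985 and 2025 CPM on day 2, 2624 and 2695 on day 3, and 1846 and 1967 on day 4. FL/FL cells held 2394 and 2395 CPM on day 2, 2347 and 2492 on day 3, and 2312 and 2282 on day 4. FL/FL libraries were therefore higher on days 2 and 4 and lower on day 3. The log2 difference was 0.26 ± 0.05 on day 2 (not tested), −0.14 ± 0.05 on day 3 (edgeR adjusted p = 0.056) and 0.27 ± 0.05 on day 4 (1.21-fold, edgeR adjusted p = 0.00012). With a minimum count of 50 in place of 10, the day 3 value passed the test (−0.15, adjusted p = 0.03).

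Hspa1a and Hspa1b, the stress-inducible HSP70 genes (chr17:35188166-35191132 and chr17:35175412-35178214, both minus strand), were low in all libraries, at 3.37 to 16.7 and 6.53 to 20.7 CPM. Of the 31-base words in the transcripts of Hspa1a, 63.8% also occur in those of Hspa1b, so the division of reads between the pair is uncertain, and their sum is given too. On day 2 the sum was 21.8 and 17.6 CPM in control cells given 4-OHT and 35.8 and 36.3 CPM in FL/FL cells, the highest of any group. On day 4 it was 19.0 and 14.0 CPM in control cells and 26.0 and 23.6 CPM in FL/FL cells. On day 3 the means of the sum were 21.2 CPM in either genotype.

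For Hspa1a alone, control cells given 4-OHT held 8.42 and 6.25 CPM on day 4 and FL/FL cells 12.6 and 12.5 CPM. The log2 difference of 0.77 ± 0.24 passed the test (1.70-fold, edgeR adjusted p = 0.016). It no longer did for the sum of both genes (0.59, adjusted p = 0.06), without the second control library (0.57, adjusted p = 0.17), or without the first (0.76, adjusted p = 0.077) or the second FL/FL library (0.77, adjusted p = 0.06). Hspa1b held 10.6 and 7.72 CPM in control cells and 13.4 and 11.1 CPM in FL/FL cells on day 4, and its difference of 0.42 ± 0.22 did not pass (edgeR adjusted p = 0.18). On day 2 the values were 0.88 ± 0.23 for Hspa1a and 0.86 ± 0.22 for Hspa1b, without a test.

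The HSP90 genes themselves did not pass the test between genotypes on any day tested. Hsp90aa1 (chr12:110656842-110669166, minus strand), the inducible form, held 308 and 324 CPM in control cells given 4-OHT and 375 and 367 CPM in FL/FL cells on day 2. On day 4 it held 228 and 230 CPM in control cells and 219 and 213 CPM in FL/FL cells. The FL/FL libraries were thus the higher ones on day 2 (0.23 ± 0.06, not tested) and the lower ones on day 4 (−0.09 ± 0.06, edgeR adjusted p = 0.31).

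Hsp90ab1 (chr17:45878552-45891949, minus strand), the constitutive form, held 1146 and 1185 CPM in control cells and 1276 and 1296 CPM in FL/FL cells on day 2 after 4-OHT. On day 4 it held 996 and 978 CPM in control cells and 957 and 1001 CPM in FL/FL cells. The libraries of the genotypes were apart on day 2 (0.14 ± 0.05, not tested) and overlapped on day 4 (−0.01 ± 0.05, edgeR adjusted p = 0.91).

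Hsph1, the HSP110 exchange factor (chr5:149537636-149560156, minus strand), held 48.6 and 48.3 CPM in control cells and 60.1 and 60.9 CPM in FL/FL cells on day 2 (0.32 ± 0.06, not tested). On day 4 it held 45.8 and 40.8 CPM in control cells and 43.6 and 41.9 CPM in FL/FL cells, which overlapped (−0.02 ± 0.06). Hspe1, the mitochondrial member (chr1:55127260-55130476, plus strand), held 50.8 and 56.5 CPM in control cells and 58.8 and 59.9 CPM in FL/FL cells on day 2 (0.14 ± 0.10, not tested). On day 4 its values were 40.0 and 37.7 CPM against 45.3 and 42.4 CPM (0.17 ± 0.11, edgeR adjusted p = 0.24).

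**Figure D2:**
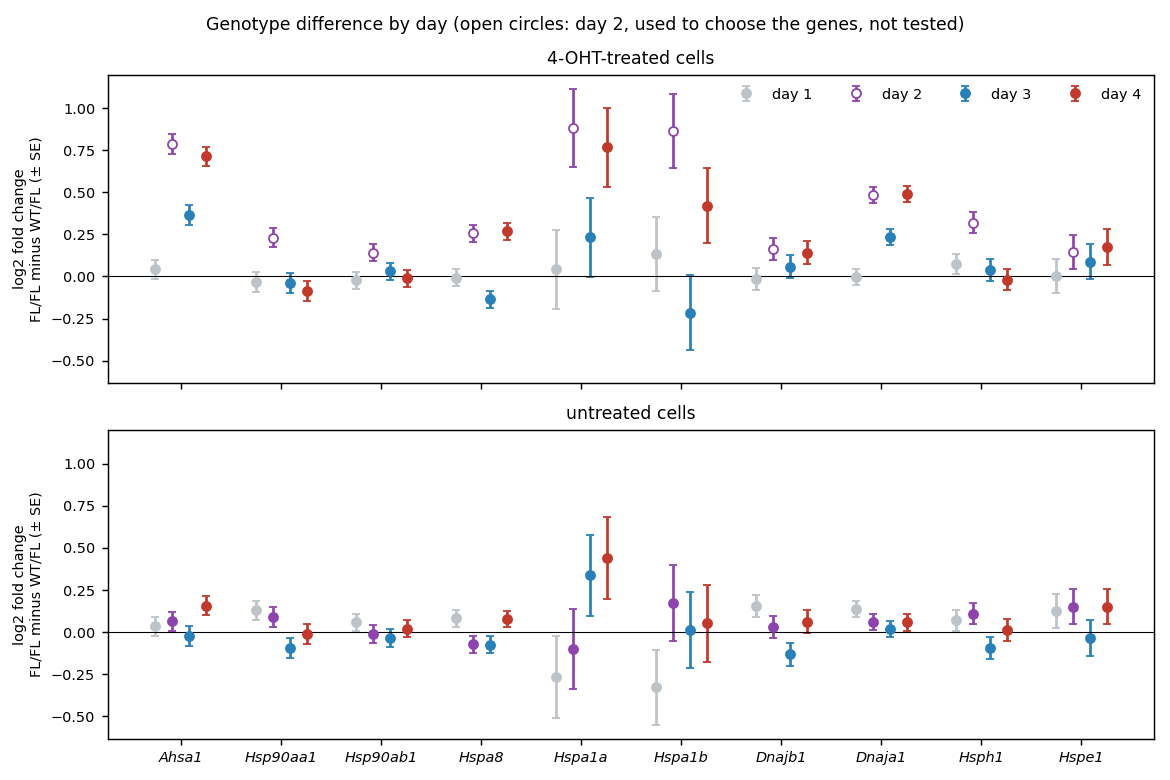
Log2 difference between FL/FL and WT/FL cells (y axis) for each of the 10 genes (x axis) on days 1 to 4. Bars are 1 SE from the edgeR fit. The upper panel shows 4-OHT-treated cells and the lower panel untreated cells. Open circles are the values of day 2 after 4-OHT, which chose the group and were not tested. After 4-OHT, Ahsa1 lies at 0.79, 0.36 and 0.71 on days 2, 3 and 4, whereas Hsp90aa1 and Hsp90ab1 lie between −0.09 and 0.03 on days 3 and 4.

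Counted over the group, 2 of the 10 genes passed the test on day 3, both higher in FL/FL cells (Ahsa1 and Dnaja1), where 19.0% of all genes passed in either direction and 9.9% were higher. On day 4, 4 of the 10 passed, all of them higher (Ahsa1, Dnaja1, Hspa8 and Hspa1a), where 30.2% of all genes passed and 13.4% were higher. The thresholds of the study, an adjusted p under 0.01 with a log2 change over 1.5, were passed by 0 of the 10 genes on either day, against 0.872 and 2.98% of all genes. The median log2 difference of the 10 genes was 0.05 on day 3 and 0.22 on day 4, beside −0.01 and −0.04 for all genes tested. On day 2, which chose the group, all 10 genes had both FL/FL libraries above both control libraries, as did 25.2% of all genes, and their median was 0.29 beside −0.01.

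Other measures moved in the same comparison. On day 4, 12 of 14 proliferation markers were lower in FL/FL cells, with Mki67 at 6.71 CPM against 47.5 CPM in control cells, and 8 of 8 interferon-stimulated genes were higher. Summed macrophage markers overlapped on that day, at 28570 to 30510 CPM against 30230 to 31000 CPM. On day 3, 3 of the 14 proliferation markers were lower and the 8 interferon-stimulated genes were higher. The macrophage sum was lower in FL/FL cells on day 3, at 38260 to 38730 CPM against 45020 to 47290 CPM. It was also lower on day 2, at 26240 to 28250 CPM against 31670 to 33690 CPM. This sum is weighted to Lyz2, the highest of its genes, and its genes were not compared singly. The part of these values in the chaperone differences was not tested.

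Some of the overlapping genes were read beside the results, because the strand setting of the libraries is not given in the sources used here. Ism2 lies on the strand opposite Ahsa1 and shares 1653 bp with it, 21.5% of its exonic bases. Ism2 held 354 counts over all libraries, beside 240982 for Ahsa1. Vipas39 lies on the same strand as Ism2 and shares 179 bp with Ahsa1, 2.33% of the exonic bases of Ahsa1. Its CPM after 4-OHT also differed between genotypes, by 0.40 on day 3 and 0.64 on day 4 (edgeR adjusted p = 3.6e-06 and 3.3e-10). In untreated cells, Vipas39 rose from day 1 to day 4 by 0.55 and Ahsa1 fell by 0.25 on the log2 scale. The part of these overlaps in the values of Ahsa1 was not tested. Smu1 overlaps 77.9% of the exonic bases of Dnaja1 and was not called between the genotypes on day 3 (0.08, adjusted p = 0.36) or day 4 (0.09, adjusted p = 0.26). Hspd1, which shares 8.03% of the exonic bases of Hspe1, was lower in FL/FL cells on day 4 (−0.26, adjusted p = 0.0074).

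The untreated cells show what the genotypes held without deletion. Between untreated FL/FL and untreated control cells, edgeR called 0 of the 10 genes on each of days 1, 2, 3 and 4, against 0.0, 0.0197, 0.0 and 2.01% of all genes. An unadjusted p under 0.05 was found for 3 genes on day 1 (Hsp90aa1, Dnajb1 and Dnaja1), for 0 on days 2 and 3, and for Ahsa1 on day 4, and DESeq2 called none. Untreated Ahsa1 on day 4 was 136 and 130 CPM in control cells and 142 and 154 CPM in FL/FL cells, a log2 difference of 0.16 ± 0.06 (edgeR adjusted p = 0.16). Resting on the second of the untreated FL/FL libraries of day 1, that is without the first, 3 of the 10 genes passed on that day (Hsp90aa1 at 0.21, Dnaja1 at 0.18 and Hspa1b at −0.77), as did 1054 of all genes. Without the second library 0 of the 10 passed.

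4-OHT in control cells, which removes 1 Trex1 copy, also left the group without a call. edgeR called 0 of the 10 genes on days 1, 3 and 4, against 0.00655, 0.537 and 0.472% of all genes, and DESeq2 called none. An unadjusted p under 0.05 was found for 0 genes on day 1, for Hspa1a on day 3 and for Ahsa1 and Hspa8 on day 4. Treated Ahsa1 exceeded untreated Ahsa1 by 0.15 ± 0.06 on day 4 (edgeR adjusted p = 0.49), with treated libraries at 155 and 140 CPM and untreated ones at 136 and 130 CPM. On day 2, Ahsa1 was 167 and 159 CPM with and 157 and 155 CPM without 4-OHT in control cells (0.06 ± 0.06, not tested).

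In FL/FL cells, 4-OHT against no treatment gave values close in size to those of the comparison between genotypes, with which it shares the treated FL/FL libraries. On day 1, edgeR and DESeq2 called 0 of the 10 genes, against 0.0131% of all genes, and Hspa1a had an unadjusted p under 0.05. Without the first untreated library of that day Hspa1a (1.05) and Hspa1b (0.89) passed, and the number of all genes that passed went from 2 to 1158. Without the second library 0 of the 10 passed. On day 3, 2 of the 10 passed, against 23.5% of all genes, with Ahsa1 at 0.39 ± 0.06 (edgeR adjusted p = 1.1e-05) and Dnaja1 at 0.25 ± 0.05 (edgeR adjusted p = 0.00029). On day 4, 4 of the 10 passed, against 29.6% of all genes. These were Ahsa1 (0.71 ± 0.06, edgeR adjusted p = 1.6e-10), Dnaja1 (0.47 ± 0.05, 1e-08), Hspa8 (0.30 ± 0.05, 2.4e-05) and Hspa1a (0.66 ± 0.24, 0.039). The call for Hspa1a was lost for its sum with Hspa1b (0.54, adjusted p = 0.086) and when any of the 4 libraries was left out. On day 2 the untested values were 0.79 for Ahsa1, 1.05 for Hspa1a, 0.98 for Hspa1b, 0.54 for Dnaja1 and 0.35 for Hspa8.

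Whether 4-OHT changed the genotypes by different amounts was tested as an interaction of genotype and treatment on each day. On day 1 edgeR and DESeq2 called 0 of the 10 genes, against 0.0131% of all genes, and Dnaja1 had an unadjusted p under 0.05. On day 3 Ahsa1 (0.39 ± 0.08, edgeR adjusted p = 0.0026) and Dnaja1 (0.22 ± 0.07, edgeR adjusted p = 0.044) passed, against 8.94% of all genes. On day 4 the same 2 genes passed, Ahsa1 at 0.56 ± 0.08 (edgeR adjusted p = 1.2e-05) and Dnaja1 at 0.43 ± 0.07 (2.7e-05), against 16.2% of all genes. Hspa8 missed the threshold on day 4 (0.19 ± 0.07, edgeR adjusted p = 0.067) and passed with DESeq2 (adjusted p = 0.02). The day 3 call of Dnaja1 did not hold without the low-count filter (adjusted p = 0.28), with a minimum count of 50 (0.055), on the 8 libraries of that day alone (0.058), or without 7 of the 8 libraries when each was left out in turn.

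The genotype difference after 4-OHT also changed from day to day. From day 1 to day 3 it grew for Ahsa1 by 0.32 (edgeR adjusted p = 0.012) and for Dnaja1 by 0.24 (edgeR adjusted p = 0.025), where 8.58% of all genes passed. From day 3 to day 4 it grew for Hspa8 by 0.41 (edgeR adjusted p = 0.00032), for Ahsa1 by 0.35 (0.0068) and for Dnaja1 by 0.26 (0.018), where 7.08% of all genes passed. Some of these calls rested on single libraries. For Ahsa1, the first change was 0.30 (adjusted p = 0.059) without the second control or the first FL/FL library of day 1, and the second change was 0.28 (adjusted p = 0.059) without the second control library of day 4. Both calls of Dnaja1 were lost without the low-count filter (adjusted p = 0.15 for each), and without 6 and 4 single libraries, respectively.

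The transcripts of most members were lower on later days than on day 1. In untreated cells, with the mean of both genotypes, 9 of the 10 genes passed the test between day 4 and day 1, 8 of them lower, against 71.9% of all genes and 35.0% lower. Hsp90aa1 fell by 1.38 ± 0.04 on the log2 scale, 2.60-fold (edgeR adjusted p = 4.3e-21). Untreated control cells held 564 and 562 CPM of Hsp90aa1 on day 1 and 231 and 223 CPM on day 4, and untreated FL/FL cells 579 and 653 CPM and then 212 and 238 CPM. The libraries of these days were far apart. Hsph1 fell by 1.17 ± 0.04 (2.25-fold, edgeR adjusted p = 6.1e-19). Hspe1 fell by 0.75, Hsp90ab1 by 0.57, Dnaja1 by 0.48, Dnajb1 by 0.31, Hspa8 by 0.29 and Ahsa1 by 0.25.

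Hspa1a was the member called higher on day 4 than on day 1 in untreated cells, by 0.41 (edgeR adjusted p = 0.039). The sum of Hspa1a and Hspa1b differed by 0.06 (adjusted p = 0.74), so that call was not found for the pair. It was also lost with size factors by relative log expression (adjusted p = 0.054) and without any of 4 single libraries, the second untreated FL/FL library of day 1 among them (0.23, adjusted p = 0.21). Without that library the other 8 genes still passed, with Hsp90aa1 at −1.34. Between day 1 and day 2 the value of Hspa1a was 0.63 and that of the sum 0.22 (adjusted p = 0.26). The share of the sum given to Hspa1a in untreated control cells was 33.3 to 33.7% on day 1 and 37.7 to 41.5% on day 4.

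The steps between days were uneven. From day 1 to day 2, 7 genes fell and Hspa1a was called higher (58.3% of all genes passed), with Hsph1 down by 1.11 and Hsp90aa1 by 0.94. With each library left out in turn, this change ran from −1.16 to −1.07 for Hsph1 and from −0.98 to −0.89 for Hsp90aa1. For Hspa1a it ran from 0.45 to 0.87. From day 2 to day 3, 8 genes passed (57.5% of all genes), of which 7 fell, with Hsp90aa1 down by 0.87 and Ahsa1 by 0.41, whereas Hspa8 rose by 0.41. From day 3 to day 4, 6 genes passed (32.0% of all genes). Hsp90aa1 rose by 0.42, Ahsa1 by 0.23, Hsph1 by 0.21 and Hsp90ab1 by 0.10, while Hspa8 fell by 0.50 and Dnaja1 by 0.12. The rise of Hsp90ab1 had an edgeR adjusted p of 0.042, lost without the low-count filter and without 6 single libraries. Hspa8 thus moved against the HSP90 genes at both later steps. Proliferation markers fell in the same comparison of day 4 with day 1, all 14 of 14, with a median of −2.79, and their part in the fall of the chaperones was not tested.

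**Figure D3:**
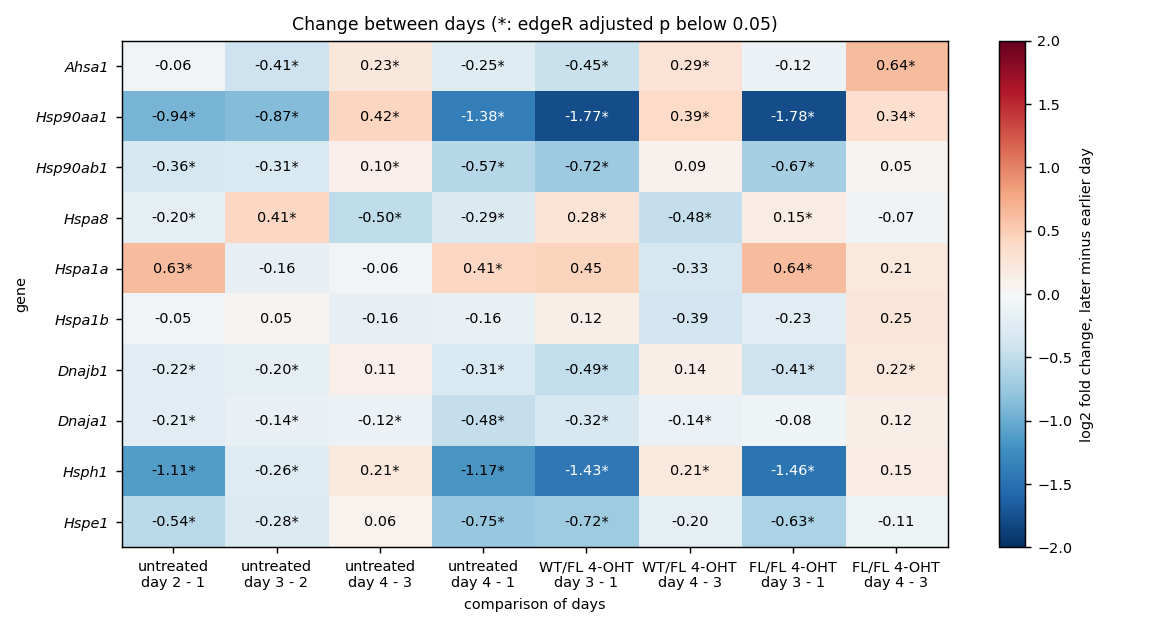
Heat map of the log2 change between days, with the 10 genes as rows and comparisons of days as columns. Colours and printed values give the later minus the earlier day, and a star marks an edgeR adjusted p below 0.05. Columns at the left are untreated cells, with the mean of both genotypes, and those at the right are 4-OHT-treated cells of each genotype. In untreated cells from day 1 to day 4, Hsp90aa1 and Hsph1 moved farthest down, by 1.38 and 1.17. Hspa8 is the gene with a rise of 0.41 from day 2 to day 3 in untreated cells.

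After 4-OHT, Hsp90aa1 and Hsph1 fell by similar amounts in both genotypes. From day 1 to day 3, Hsp90aa1 changed by −1.77 in control cells and −1.78 in FL/FL cells, and Hsph1 by −1.43 and −1.46. Hsp90aa1 was the 1 member that passed the thresholds of the study there, against 16.8% of all genes in control cells and 16.2% in FL/FL cells. In that comparison 8 of the 10 genes passed in control cells (64.7% of all genes) and 7 in FL/FL cells (64.3%). Whichever library of these FL/FL groups was left out, not all 7 calls in FL/FL cells held. Ahsa1 fell by 0.45 in control cells, and in FL/FL cells its value was −0.12 (edgeR adjusted p = 0.062). Dnaja1 fell by 0.32 in control cells, with −0.08 in FL/FL cells (edgeR adjusted p = 0.13). Under DESeq2 both of these FL/FL values passed.

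From day 3 to day 4 after 4-OHT, 5 genes passed in control cells (19.6% of all genes) and 3 in FL/FL cells (15.7%). Ahsa1 rose in both, by 0.29 in control cells and by 0.64 in FL/FL cells (edgeR adjusted p = 8.9e-09). Hsp90aa1 rose by 0.39 and 0.34. In control cells Hsph1 also rose, by 0.21, while Hspa8 fell by 0.48 and Dnaja1 by 0.14. In FL/FL cells the third gene was Dnajb1 at 0.22 (edgeR adjusted p = 0.025), which did not pass when any of the 4 libraries was left out.

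Levels of different genes were compared per kilobase of exon. In the median library, Hspa8 made up 38.6% and Hsp90ab1 35.5% of the summed CPM per kilobase of the 10 genes, followed by Hsp90aa1 with 10.3%, Hspe1 with 4.71%, Ahsa1 with 3.35%, Dnaja1 with 2.85% and Dnajb1 with 1.52%. Hsph1, Hspa1b and Hspa1a each stayed under 1%, at 0.742, 0.617 and 0.464%. The constitutive forms of HSP70 and HSP90 thus made up most of the summed level. Divided by the longest transcript instead of all exons, the share of Hspa8 was 47.6% and that of Hsp90ab1 28.5%, in the same order. The summed level ran from 510 to 823 CPM per kilobase, with a median of 596.

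Among the HSP90 genes the balance moved with time. Per kilobase, Hsp90aa1 stood at 44.2 to 48.0% of Hsp90ab1 in the 8 libraries of day 1 and at 20.0 to 22.9% on day 3, so that the libraries of these days did not overlap. The level of Ahsa1 relative to both HSP90 genes together was 5.10 to 5.59% per kilobase on day 1. In 4-OHT-treated control cells it was 7.78 and 7.14% on day 2, 7.59 and 7.37% on day 3, and 8.58 and 7.90% on day 4. In 4-OHT-treated FL/FL cells it was 11.6 and 11.4%, 10.0 and 9.05%, and 13.8 and 13.7% on the same days. The FL/FL libraries were higher on each of these days, given as a description because the ratio contains the values that chose the group.

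**Figure D4:**
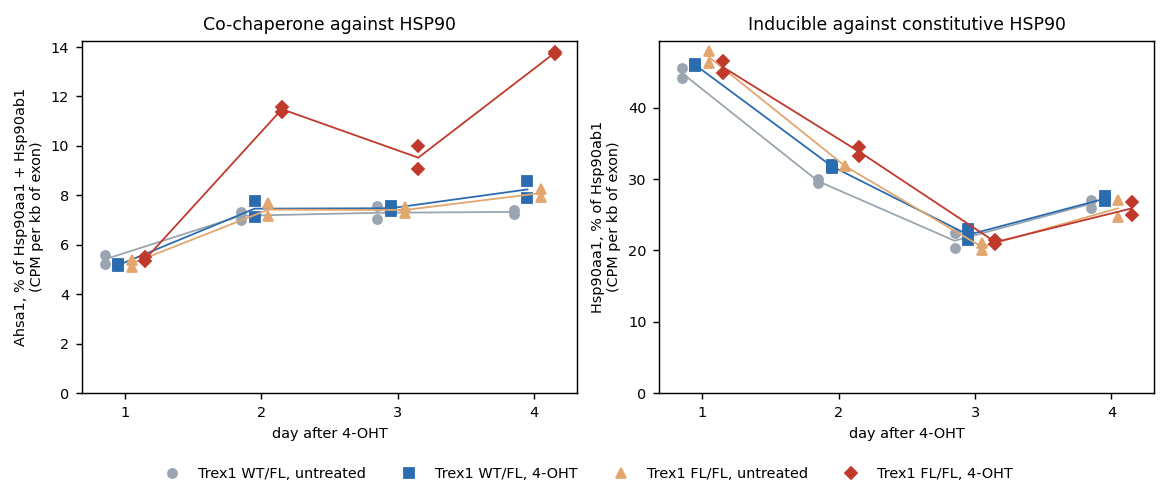
Left, Ahsa1 as a percentage of the summed HSP90 level, both in CPM per kilobase of exon (y axis, from 0), by day (x axis). Right, Hsp90aa1 as a percentage of Hsp90ab1, drawn in the same way. Points are libraries, 2 per group. In the left panel, all groups lie between 5.10 and 5.59% on day 1, and 4-OHT-treated FL/FL cells reach 13.8% on day 4.

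In the order of its 16 group means, Ahsa1 was highest in 4-OHT-treated FL/FL cells of day 2 (282 CPM) and of day 4 (242 CPM), each apart from the next group. Ranks 3 to 8, which held the 4 groups of day 1, untreated FL/FL cells of day 2 and treated control cells of day 2, overlapped with their neighbours at 163 to 169 CPM. 4-OHT-treated FL/FL cells of day 3, at 155 CPM, took rank 10, between untreated cells of days 2 and 4, and the other 3 groups of day 3 were lowest at 119 to 121 CPM. Hspa1a, Hspa1b and Dnaja1 were also highest in 4-OHT-treated FL/FL cells of day 2. Hsp90aa1, Hsp90ab1, Dnajb1, Hsph1 and Hspe1 were highest in a group of day 1, and Hspa8 in treated control cells of day 3.

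Over the 32 libraries, which share groups and days, the log2 CPM of Ahsa1 correlated most with Dnaja1 among the members (Pearson r = 0.82, a description only), then Hspa1b (0.59), Dnajb1 (0.57) and Hspa1a (0.53). The values were 0.41 for Hsp90aa1, 0.40 for Hsp90ab1, 0.36 for Hspe1, 0.32 for Hsph1 and −0.04 for Hspa8. Of all genes tested outside the group, Tmem171 (0.91), Nap1l2 (0.90), Fam72a, Cdk14 and Ccdc86 (each 0.88) came closest to Ahsa1. Tmem171 ranged from 5.51 to 23.9 CPM and Cdk14 from 57.0 to 125 CPM.

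The wider chaperone network was read from 14 lists with 145 genes, compared between 4-OHT-treated genotypes on days 3 and 4. Over all genes, 19.0% passed this comparison on day 3, with 9.9% higher in FL/FL cells, and 30.2% on day 4, with 13.4% higher. The counts of each list are to be read against these shares, and a count near them is no result about that list. Of 16 other HSP90 co-chaperones tested, day 3 gave 1 higher and 2 lower and day 4 gave 1 in either direction. Ppid, a cyclophilin that binds HSP90, was lower on both days (−0.38 and −0.31), and Cacybp was higher on day 4 (0.24). The median log2 difference of these 16 was −0.02 on day 3 and −0.04 on day 4, beside −0.01 and −0.04 for all genes. Of 7 HSP70 and HSP110 relatives, 2 were higher on day 3 and 2 lower on day 4. Hspa1l, next to Hspa1a and Hspa1b on the chromosome, was 2.41 higher on day 3 but at 1.31 against 0.24 CPM, and Hspa4 was 0.16 lower on day 4.

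Of 15 other J-domain genes, day 3 gave 1 higher and 2 lower and day 4 gave 4 higher and 3 lower. Dnajb14 (−0.55 and −0.64) and Dnajb4 (−0.45 and −0.46) were lower on both days, whereas Dnaja2, a class A J-domain gene like Dnaja1, was higher on day 4 (0.31). Of 8 nucleotide exchange factors, 2 were higher on day 3, whereas day 4 gave 2 higher and 3 lower. Bag1 was higher on both days (0.23 and 0.47), as was Sil1 (0.24 and 0.40). Among the folding machines, the chaperonin TRiC had 1 of its 8 subunits, Tcp1, lower on day 4 (−0.24). On day 3 edgeR called 0 of the 8, with 1 at an unadjusted p under 0.05 and 1 called by DESeq2. Prefoldin, which hands substrates to TRiC, had 1 of 6 subunits higher on day 3 and 4 of 6 on day 4, with Pfdn1 at 0.39 and 0.41.

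Chaperones of organelles differed in both directions. Of 10 mitochondrial chaperones and proteases, 3 were higher on day 3, whereas day 4 gave 1 in either direction. Hspa9, the mitochondrial HSP70, was higher on both days (0.65 and 0.35). Of 14 chaperones of the endoplasmic reticulum, 4 were higher on day 3, whereas day 4 gave 2 higher and 5 lower. Hspa5, the HSP70 of that compartment, was higher on both days (0.34 and 0.37), while Hsp90b1, its HSP90, was lower on day 4 (−0.24).

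The regulators and other targets of the heat shock response gave no shared direction. edgeR called 0 of 4 heat shock factor genes on day 3 and on day 4, with 1 and 0 at an unadjusted p under 0.05 and 0 called by DESeq2. The same held for 3 small heat shock protein genes, with 1 and 0 at an unadjusted p under 0.05 and 0 called by DESeq2. Of 10 other genes inducible by heat shock factor 1, day 3 gave 2 higher and 4 lower and day 4 gave 4 in either direction. The metallothionein gene Mt1 (−0.53 and −0.99) and the heme oxygenase gene Hmox1 (−0.50 and −1.25) were lower on both days. Of 15 immediate early genes, day 3 gave 2 higher and 7 lower and day 4 gave 2 higher and 3 lower, with Egr2 at −1.56 and −1.53. All 8 interferon-stimulated genes were higher on both days, with medians of 1.35 and 2.89.

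**Figure D5:**
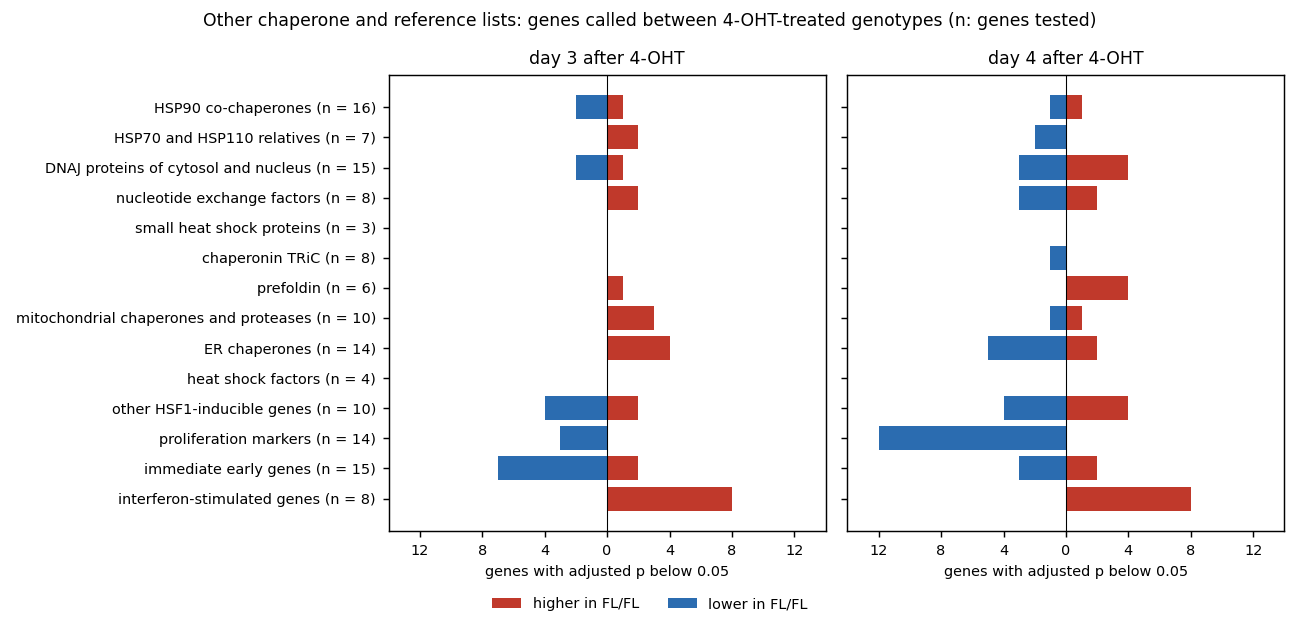
Number of genes with an edgeR adjusted p below 0.05 between 4-OHT-treated genotypes (x axis) for each of 14 gene lists (y axis, with the number tested), on day 3 and day 4. Bars to the right are genes higher in FL/FL cells and bars to the left genes lower. The 8 interferon-stimulated genes are all to the right on both days, and 12 of 14 proliferation markers are to the left on day 4.

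In untreated cells, 71.9% of all genes passed between day 4 and day 1, with 35.0% lower. Between these days, all 8 TRiC subunits were lower (median −0.94), as were 13 of 14 chaperones of the endoplasmic reticulum (median −0.77) and 11 of 16 HSP90 co-chaperones, with 2 higher. Fkbp5 fell by 3.10 and Fkbp4 by 1.27, both encoding immunophilins that join HSP90. Of the mitochondrial list 6 were lower and 1 higher, with Hspd1, the partner of Hspe1, down by 1.35. Of 10 other genes inducible by heat shock factor 1, 7 were higher and 2 lower (median 0.71). Of the immediate early genes 14 were higher and 1 lower, and 7 of 8 interferon-stimulated genes were higher.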

How the data were processed

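RNA-seq of 32 libraries was sequenced on an Illumina NovaSeq. Per the labels and the study's methods, the authors used JE to demultiplex, FastQC for quality control, Salmon on GRCm39 for transcript quantification and tximport for gene totals. The deposited table holds whole-number estimated counts per gene, a form of expected counts. How Salmon divides reads shared by near-identical genes affects Hspa1a and Hspa1b. Gene names and lengths came from GENCODE vM39, which matched 51048 of 54281 identifiers (unmatched rows held 0.32% of counts). Depth was 35120505 to 63760884 counts.

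Genes were filtered with a minimum count of 10 (filterByExpr), scaled by TMM and fitted with edgeR 4.0.16 (R 4.3.3; quasi-likelihood test, 16 group means, 16 residual degrees of freedom, common biological coefficient of variation 0.0912). All 32 libraries shared 1 estimate of the spread, and p-values were adjusted by Benjamini-Hochberg over 15257 genes. CPM used TMM-scaled totals. Replicate libraries correlated at r = 0.983 to 0.99 and differed beyond sampling noise. They were thus not copies or splits of the same reads, which does not tell whether they came from separate cultures. Alternatives were size factors by relative log expression, DESeq2 1.42.0, other filters, the libraries of 1 day, each library left out, the study's thresholds, the sum of Hspa1a and Hspa1b, transcript length, members summed with genes sharing 31-base words, and a block for the series of serial numbers (the last 2 chosen after seeing the data). Scripts were tested on simulated data. Replicate numbers were given in accession order.

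The members and gene lists were chosen with earlier results of these data known. Named are all members, up to 3 passing genes of each list by size of change, and the 5 genes closest to Ahsa1. The 14 lists were HSP90 co-chaperones, HSP70 and HSP110 relatives, J-domain proteins, nucleotide exchange factors, small heat shock proteins, TRiC, prefoldin, mitochondrial and endoplasmic reticulum chaperones, heat shock factors, other genes inducible by heat shock factor 1, proliferation markers, immediate early genes and interferon-stimulated genes.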

Additional observations from a re-analysis of the deposited data

Results flagged for a closer look

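Effects that differed between groups by a test of the difference itself were the interaction of genotype and 4-OHT and the change of the genotype difference between days, all on the log2 scale with the edgeR quasi-likelihood test. The interaction was 0.39 for Ahsa1 and 0.22 for Dnaja1 on day 3, and 0.56 for Ahsa1 and 0.43 for Dnaja1 on day 4. The genotype difference after 4-OHT grew from day 1 to day 3 by 0.32 for Ahsa1 and 0.24 for Dnaja1. From day 3 to day 4 it grew by 0.35 for Ahsa1, 0.41 for Hspa8 and 0.26 for Dnaja1. As given above, the day 3 interaction of Dnaja1 and the changes between days of Ahsa1 and Dnaja1 did not pass under all alternatives. Groups held 2 libraries, too few for a test of outlying samples.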

How the results depend on the processing

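Over all alternatives no value of a member that passed a test in either fit changed sign. DESeq2 left 255 values of members on their side of the threshold and let 5 more pass, relative log expression 254 (4 more passed and 2 no longer did), a minimum count of 50 left 257 (2 more, 1 fewer), no filter on low counts 243 (8 more, 9 fewer), and the 8 libraries of a day 156 (3 more, 1 fewer). Leaving out 1 library, 1341 stayed, 7 more passed and 52 no longer did; where this left a group with 1 library, its spread was taken from the other groups. For the 6 members other than Hspa1a and Hspa1b that share words with other genes, summing them with those genes changed none of 156 calls, whereas the sum of Hspa1a and Hspa1b kept 47 calls of these genes and lost 5.

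The thresholds of the study left 0 of the 10 genes in the genotype comparisons after 4-OHT, in 4-OHT against untreated FL/FL cells, in the interactions, in the changes of the genotype difference, between untreated days and from day 3 to day 4 after 4-OHT, and 1 from day 1 to day 3 in either treated genotype. With no filter on low counts, 1 gene passed for 4-OHT in control cells on day 3, 1 for 4-OHT in FL/FL cells on day 1, 1 for the interaction of day 3 and 1 for the change from day 1 to day 3. A minimum count of 50 and the 8 libraries of the day also gave 1 for the interaction of day 3. Leaving out single libraries gave 0 to 3 genes between untreated genotypes on day 1, 0 to 2 for 4-OHT in FL/FL cells on day 1, 1 to 2 for the interaction of day 3, 0 to 2 and 1 to 3 for the changes of the genotype difference from day 1 to 3 and from day 3 to 4, and 3 to 4 in treated control cells from day 3 to day 4, against 5 with all libraries. The cause of these changes was not tested.

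The labels give no replicate numbers, but the serial numbers of the libraries fall into 2 series within each genotype, with 1 library of every group in each. A fit with these series as a replicate block within genotype was added after seeing the data. It kept 254 values of members on their side of the threshold and let 6 more pass, and over all genes it called 723 in place of 306 between untreated genotypes on day 4, and 174 and 165 for 4-OHT in control cells on days 3 and 4. Between groups of 1 genotype, the differences between the series correlated across genes at r = −0.00775 to 0.144, with 5 of 28 pairs of groups over 0.1 in either genotype. The median r was 0.071 within control groups and 0.063 within FL/FL groups. Between groups of different genotypes it was 0.0293, with 0 of 64 pairs over 0.1. The labels do not say what the series are, so the main fit left the libraries unpaired, and a shared origin within a series was not tested. Leaving out 1 library moved the count over all genes between untreated genotypes on day 4 from 306 to as few as 0, and without the first untreated FL/FL library of day 1 it moved the count on that day from 0 to 1054 between untreated genotypes, from 2 to 1158 for 4-OHT in FL/FL cells and from 2 to 613 for the interaction. Over all genes, DESeq2 called 729 in place of 306 genes between untreated genotypes on day 4, 149 in place of 82 for 4-OHT in control cells on day 3 and 137 in place of 72 on day 4, and 6 to 11 in the comparisons of genotypes and of treatments where edgeR called 0 to 3. With no filter on low counts these became 694, 409 and 335, and 104 to 375, and the thresholds of the study left 133 of 2901 genes and 454 of 4607 genes between treated genotypes on days 3 and 4. With 2 libraries a group, the spread is poorly known, which limits what these tests can show.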
